A study of Mus musculus with 6 samples.

Results

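The miR-132 and miR-212 cluster was described in small RNA libraries of mouse renal cortex. Its members are the 4 mature arms mmu-miR-132-3p, mmu-miR-132-5p, mmu-miR-212-3p and mmu-miR-212-5p (mmu for mouse, left out from here on), chosen by name from the 1900 mature miRNA names in the count tables. All 4 had counts in every library. The samples were renal cortex of 6 C57BL/6 mice, all kept for 8 weeks on the HF/HC/HS/BA diet, which is rich in fat and cholesterol and contains bile salt. In 3 mice the diet was given alone and in the other 3 it contained tofogliflozin, an inhibitor of the glucose transporter SGLT2 of the proximal tubule. The sample titles call these groups NASH and NASHTofo. The labels give neither age nor dose, and no mice on a normal diet were analysed here, so nothing can be said of the diet itself.

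Both miRNAs are processed from a shared primary transcript that is switched on by the transcription factor CREB, as described first in neurons exposed to neurotrophins and later for angiotensin II in vessels and heart. A hairpin is cut into a duplex of a 5p and a 3p arm, and the arm kept in Argonaute directs it to target mRNAs through its seed, bases 2 to 8. miR-132-3p is known for repressing RasGAP p120 (Rasa1) and Foxo3, and has been studied in renal fibrosis. Bulk cortex mixes all cell types, so fewer cells of a type and less RNA per cell cannot be told apart.

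The mature sequences are shown because the arms differ in which seed they carry. They come from RefSeq (build GRCm38.p6), where all 4 names were matched. Each is written 5′ to 3′ with the seed in capitals.
miR-132-3p: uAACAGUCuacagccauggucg
miR-212-3p: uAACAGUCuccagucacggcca
miR-132-5p: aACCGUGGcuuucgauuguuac
miR-212-5p: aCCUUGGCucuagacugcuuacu
The 3p arms share the seed AACAGUC, and no other mature name among the 1679 in that table carries it. Of their 22 bases 17 are identical, with the first 9 the same. Counted from 1 at the 5′ end of miR-132-3p, the differences to miR-212-3p are A10C, C14U, U17C, U20C and G22A. Each 5p arm has a seed found in no other mature sequence of the table, so the 5p arms of the hairpins do not share a seed with each other or with the 3p arms.

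The hairpins are shown next with the mature arms in capitals, to place each arm.
Mir212: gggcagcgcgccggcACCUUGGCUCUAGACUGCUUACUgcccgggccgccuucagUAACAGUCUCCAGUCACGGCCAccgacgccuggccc
Mir132: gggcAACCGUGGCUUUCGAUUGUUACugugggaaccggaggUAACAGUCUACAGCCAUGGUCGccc
Mir212 lies at chr11:75173388-75173478 and Mir132 at chr11:75173682-75173747, both on the plus strand, with 203 bases between them. In GENCODE M21, whose build GRCm38 is mm10, both lie in intron 1 (75172598 to 75173977) of the 3-exon non-coding transcript 1700016P03Rik. Hic1, a transcriptional repressor gene, is the next annotated gene upstream on the opposite strand.

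**Figure D1:**
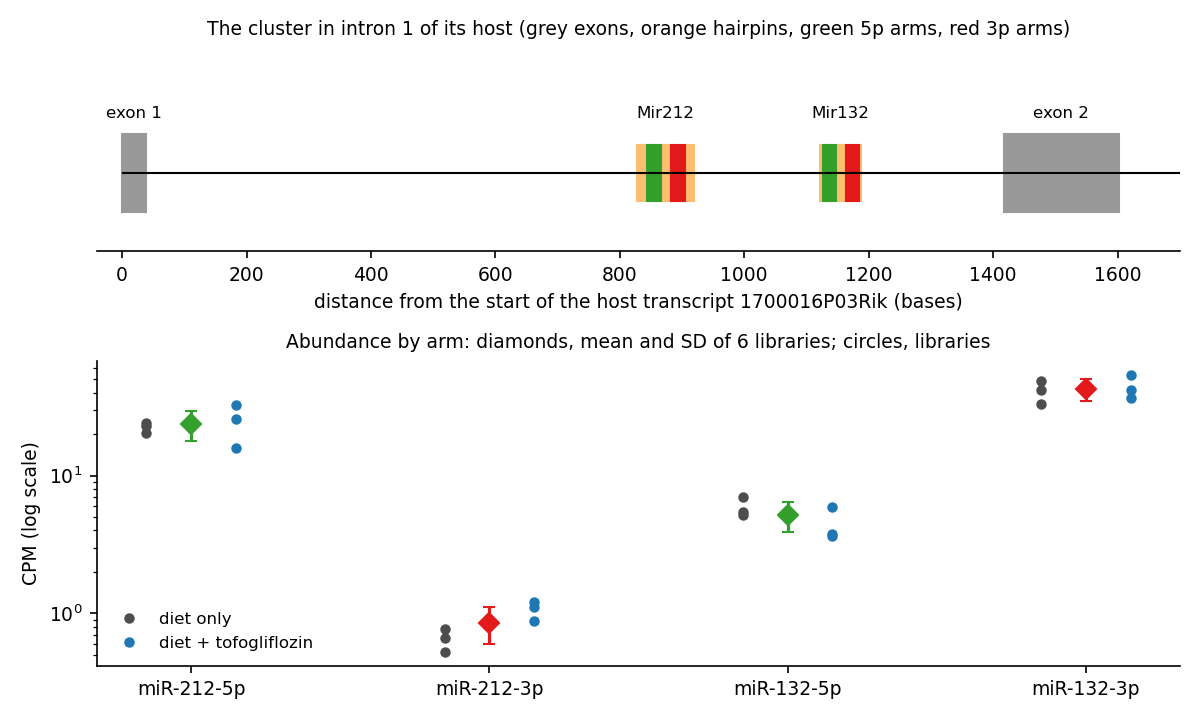
Upper panel, position of exons, hairpins and mature arms by distance in bases from the start of the host transcript; lower panel, abundance in CPM (counts scaled to the library total, log scale) of each arm, with circles for libraries and diamonds with bars for the mean and SD of 6 libraries. The 5p arm of Mir212 and the 3p arm of Mir132 are the abundant arms, at means of 23.6 and 42.6 CPM.

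The cluster was a modest part of the cortex miRNA pool, and its hairpins were read mainly from opposite arms. Of 460 miRNAs with enough counts to be tested, miR-132-3p ranked 173 by mean abundance at 42.6 CPM and miR-212-5p ranked 198 at 23.6 CPM. miR-132-5p ranked 287 at 5.15 CPM and miR-212-3p ranked 432 at 0.855 CPM. Neighbouring arms in this order did not overlap over the 6 libraries. The closest were miR-132-3p and miR-212-5p, whose lowest and highest values were 32.9 and 32.5 CPM in different libraries. By abundance, the tested miRNAs next to miR-132-3p were miR-125b-1-3p (45.0 CPM) and miR-672-5p (41.3 CPM). Those next to miR-212-5p were miR-676-5p (24.4 CPM) and miR-365-2-5p (23.4 CPM). The lower arms stood between miR-3068-3p and miR-331-5p (5.19 and 5.09 CPM) for miR-132-5p, and between miR-1941-5p and miR-141-5p (0.860 and 0.847 CPM) for miR-212-3p.

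Libraries held 6643638 to 22886200 counts after repeated rows of a name were merged by their largest count, the fewest in tofogliflozin replicate 2. That library also stood apart on the first principal component (13.8, against -6.17 to 0.141 in the others; 52.0% of the variance). All 5 kidney tubule markers had counts, led by miR-10a-5p and miR-192-5p at means of 86723 and 51463 CPM, as the tissue label asks. Their sum overlapped between the groups and was highest in tofogliflozin replicate 2. One of them, miR-204-5p, did not overlap, at 271 ± 15.6 CPM on the diet and 447 ± 53.4 CPM under tofogliflozin (SD, n = 3 per group; adjusted p = 0.387 by edgeR, called by DESeq2). As background, 23 of the 460 tested miRNAs (5%) had groups that did not overlap on log2 CPM, with tofogliflozin the higher. The part of miR-204-5p in the members' values was not tested. A count of 0 would allow up to 0.131 to 0.452 CPM (3 counts). This covers counting error only, as do all counting intervals here, because they use read counts without the spread between mice. The reads also carry no molecular identifiers, so copies of a molecule are not told apart. Between 10 and 19 counts for miR-212-3p in 5 libraries and 8 in tofogliflozin replicate 2 therefore set the precision of every statement on that arm.

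The first comparison asked how many reads each hairpin contributes to the cluster. Counting both arms, Mir132 had 871, 696 and 818 reads in diet-only replicates 1, 2 and 3, against 476, 338 and 379 for Mir212. With tofogliflozin there were 624, 384 and 738 reads of Mir132 and 369, 224 and 291 of Mir212. Mir132 thus had more reads in each library. These are reads of different sequences, and whether the library kit captures each equally was not tested. The same limit holds for the ratios and shares between arms below. The ratio of the hairpins was 2.02 ± 0.168 without and 1.98 ± 0.481 under tofogliflozin (SD, n = 3 per group), and ran from 1.69 in tofogliflozin replicate 1 to 2.54 in tofogliflozin replicate 3. The cluster summed to 70.0 ± 10.1 CPM and 74.4 ± 16.0 CPM (SD, n = 3 each). It was lowest in diet-only replicate 1 (58.9 CPM) and highest in tofogliflozin replicate 2 (91.5 CPM).

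The ratio near 2 between hairpins contrasts with that between arms of the same side. miR-132-3p exceeded miR-212-3p by 62.7, 54.3 and 73.5 times in the diet-only libraries and by 47.7, 45.0 and 33.5 times with tofogliflozin. On the 5p side the order was the other way round. miR-212-5p exceeded miR-132-5p by 3.9, 3.3 and 4.4 times on the diet alone and by 6.9, 9.0 and 2.7 times with tofogliflozin. Over all libraries, miR-132-3p made up 58.8% of the reads of the cluster, miR-212-5p 32.3%, miR-132-5p 7.72% and miR-212-3p 1.16%.

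For the shared seed AACAGUC this means that nearly all reads came from Mir132. Of 3724 reads with that seed, 72 were miR-212-3p, a share of 1.93% (exact Clopper-Pearson 95% interval 1.52% to 2.43%, counting error only). Per library the share was 1.57%, 1.81% and 1.34% on the diet alone and 2.05%, 2.17% and 2.90% with tofogliflozin. Mir212 was read mostly from the arm without this seed, as 2005 of its 2077 reads were miR-212-5p, with the seed CCUUGGC.

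The division of reads between arms was compared with the other hairpins. Among 188 hairpins with both arms named and a mean of at least 50 counts over both arms, the 5p arm was the higher in 99 and the 3p arm in 89. The log2 ratio of 5p to 3p mean counts, with 1 added to each, was 4.69 for miR-212 and -2.92 for miR-132. By this measure both hairpins were less one-sided than most, since 123 hairpins had a larger absolute ratio than miR-212 and 150 a larger one than miR-132 (median 6.20). A hairpin with more counts can reach a larger ratio, and hairpins of like abundance were not compared separately. The lesser arm took 11.6% of the miR-132 reads (exact 95% interval 10.6% to 12.6%) and 3.47% of the miR-212 reads (2.72% to 4.35%).

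The design's main question was whether the arms differ between mice given tofogliflozin and mice on the diet alone. None of the 4 passed the threshold. By edgeR (quasi-likelihood F-test), no miRNA reached the adjusted threshold of 0.05 (0 of 460, 0%), 23 had an unadjusted p under 0.05 (5%), DESeq2 called 2 and limma-voom 0, and none of the calls was a member. The point estimates had opposite signs within the cluster, above 0 for 3 arms and below 0 for miR-132-5p.

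miR-132-3p, the main arm of its hairpin, was at 32.9, 41.8 and 48.3 CPM in diet-only replicates 1, 2 and 3, and at 41.6, 54.2 and 36.9 CPM in tofogliflozin replicates 1, 2 and 3. The groups overlap, with the lowest value on the diet alone and the highest in tofogliflozin replicate 2. The means were 41.0 ± 7.74 and 44.2 ± 8.95 CPM (SD, n = 3 each). The log2 fold change was 0.07 ± 0.22 (SE; adjusted p = 0.973 by edgeR), and its 95% interval spans folds of 0.739 to 1.5. The exact 2-sided permutation test of log2 CPM gave p = 0.8, where 3 against 3 mice cannot go below 0.1. Without tofogliflozin replicate 2 the log2 fold change was -0.10, and without diet-only replicate 1 it was -0.04.

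miR-132-5p, the lesser arm, was at 5.20, 6.93 and 5.45 CPM in the diet-only mice, while the tofogliflozin mice had 3.78, 3.61 and 5.92 CPM. Tofogliflozin replicates 1 and 2 lay below all diet-only libraries and replicate 3 lay among them. The log2 fold change was -0.43 ± 0.27 (SE; adjusted p = 0.854 by edgeR), an interval of folds from 0.479 to 1.15. The exact permutation p was 0.3. Without tofogliflozin replicate 3 the log2 fold change was -0.65 (adjusted p = 0.338 by edgeR), and without diet-only replicate 2 it was -0.24.

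miR-212-5p, the main arm of Mir212, stood at 20.3, 22.9 and 24.2 CPM in diet-only replicates 1, 2 and 3 and at 25.9, 32.5 and 15.8 CPM in those with tofogliflozin. The diet-only libraries lay close together, while the tofogliflozin group held both the highest and the lowest value of the 6. The counting interval of tofogliflozin replicate 3 (14.0 to 17.8 CPM) lay below those of replicates 1 (23.3 to 28.8 CPM) and 2 (28.3 to 37.1 CPM). The log2 fold change was 0.10 ± 0.28 (SE; adjusted p = 0.969 by edgeR), with folds of 0.687 to 1.67 inside its interval, and the exact permutation p was 1. It was -0.14 without tofogliflozin replicate 2 and 0.39 without tofogliflozin replicate 3.

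miR-212-3p had 12, 11 and 10 counts on the diet alone, or 0.524, 0.771 and 0.657 CPM. With tofogliflozin it had 12, 8 and 19 counts, or 0.872, 1.20 and 1.10 CPM. The groups did not overlap, the tofogliflozin libraries being the higher, as for 23 of the 460 tested miRNAs (5%), while 32 (6.96%) were the lower. The low-count filter passed this arm only through the tofogliflozin libraries, as diet-only replicates 1 and 3 fell below its cutoff. Its place among the 23 is therefore no support for a direction. The log2 fold change was 0.65 ± 0.41 (SE; adjusted p = 0.854 by edgeR), and folds from 0.821 to 3.02 lie within its interval. Without the low-count filter the log2 fold change was 0.63 ± 0.66 (SE; adjusted p = 0.844 by edgeR). The exact permutation p was 0.1, the smallest possible here. The counting interval of each library overlapped those of all the others, from 0.271 to 0.916 CPM in diet-only replicate 1 to 0.663 to 1.72 CPM in tofogliflozin replicate 3.

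**Figure D2:**
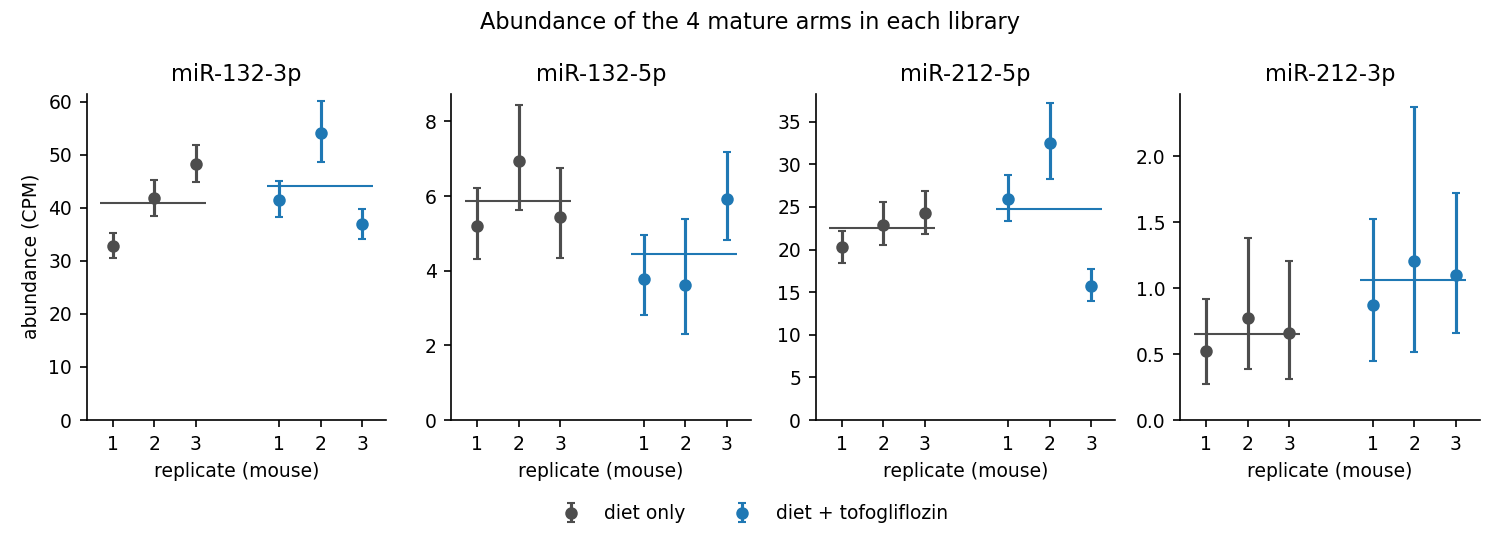
Abundance in CPM of each arm in each of the 6 mice, by replicate, with bars for the exact 95% Poisson interval of the count and horizontal lines for group means; vertical scales differ between panels. Groups overlap for 3 arms, and for miR-212-3p the points are apart while the bars overlap.

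**Figure D3:**
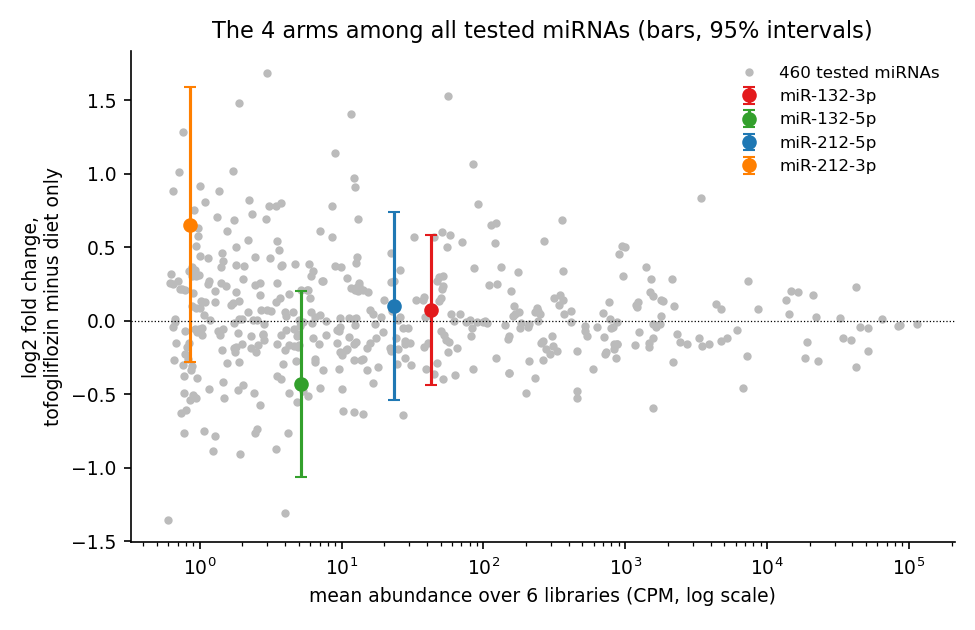
Log2 fold change (tofogliflozin minus diet only) against mean CPM on a log axis for the 460 tested miRNAs, with the 4 arms in colour and bars for their 95% intervals. All 4 intervals include 0, and miR-212-3p at 0.855 CPM has the widest.

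Ratios within a library are free of its scaling factor, so arm use and cluster stoichiometry were compared as log2 ratios of counts, with 1 added to each count. The added 1 leaves some dependence on depth where counts are few, as for miR-212-3p. With 0.5 added, the group difference was -0.60 for miR-132-3p over miR-212-3p and -0.62 for miR-212 5p over 3p. The 4 ratios share counts and are not independent of each other. For 3p arms, the log2 ratio of miR-132-3p to miR-212-3p was 5.86, 5.64 and 6.06 on the diet alone and 5.46, 5.33 and 4.99 with tofogliflozin. All tofogliflozin libraries were below all diet-only libraries. The difference was -0.59 on the log2 scale (exact 2-sided permutation p = 0.1, the smallest possible; adjusted p = 0.4 over 4 ratios). As background, 14 of 96 pairs of same-arm miRNAs within 10 kb on a strand (14.6%) had groups that did not overlap, this pair among them. This ratio rests on the 8 to 19 counts of miR-212-3p per library. That arm passed the low-count filter only through the tofogliflozin libraries. The gap in the ratio therefore reuses the counts behind the gap in miR-212-3p and is not a second result. The summed leukocyte markers (7 of 7 with counts, none at 0) also did not overlap between the groups, at 1589 to 2691 CPM in diet-only mice and 1397 to 1471 CPM in tofogliflozin mice. That gap was carried by miR-146a-5p (1877 ± 558 and 1281 ± 50.8 CPM; SD, n = 3 per group; adjusted p = 0.854 by edgeR). The other 6 markers overlapped between the groups, summing to at most 185 CPM in diet-only and 197 CPM in tofogliflozin mice. As background, 32 of the 460 tested miRNAs (6.96%) had groups that did not overlap on log2 CPM, with tofogliflozin the lower. The part of miR-146a-5p in the ratio of the 3p arms was not tested.

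For 5p arms, the log2 ratio of miR-132-5p to miR-212-5p was -1.95, -1.71 and -2.14 on the diet alone and -2.76, -3.12 and -1.41 with tofogliflozin. Tofogliflozin replicates 1 and 2 were the lowest of the 6 and replicate 3 the highest. The difference of -0.49 had an exact permutation p of 0.4 (adjusted p = 0.4). Without tofogliflozin replicate 3 it was -1.0, without replicate 1 of that group -0.33 and without its replicate 2 -0.15. The SD of this ratio over the 6 libraries, 0.64, was larger than in 67 of the 96 pairs (median 0.43), and that of the 3p ratio, 0.38, larger than in 38.

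Within miR-132, the log2 ratio of 5p to 3p was -2.65, -2.58 and -3.13 on the diet alone and -3.43, -3.85 and -2.63 with tofogliflozin. The 5p arm thus took 13.7%, 14.2% and 10.1% of the hairpin's reads on the diet alone, and 8.33%, 6.25% and 13.8% with tofogliflozin. Replicates 1 and 2 with tofogliflozin had the smallest 5p shares, and replicate 3 was within the diet-only range. The difference was -0.52 ± 0.36 (SE; adjusted p = 0.918 by limma over 74 hairpins, of which 0 were called, 0%). The exact permutation p was 0.3 (adjusted p = 0.4). Without tofogliflozin replicate 3 the difference was -0.86 (adjusted p = 0.150 by limma), and without tofogliflozin replicate 2 it was -0.24.

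Within miR-212, the log2 ratio of 5p to 3p was 5.16, 4.77 and 5.07 on the diet alone and 4.78, 4.59 and 3.77 with tofogliflozin. Tofogliflozin replicate 3 was the lowest, and replicate 1 lay just above diet-only replicate 2, so the groups overlap. The difference was -0.62 (exact permutation p = 0.2, adjusted p = 0.4), and it was -0.31 without tofogliflozin replicate 3. The lesser arm had too few counts for the test over 74 hairpins. With a minimum mean of 10 counts, limma gave -0.62 ± 0.39 (SE; adjusted p = 0.925), and 0 of 111 hairpins were called (0%).

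**Figure D4:**
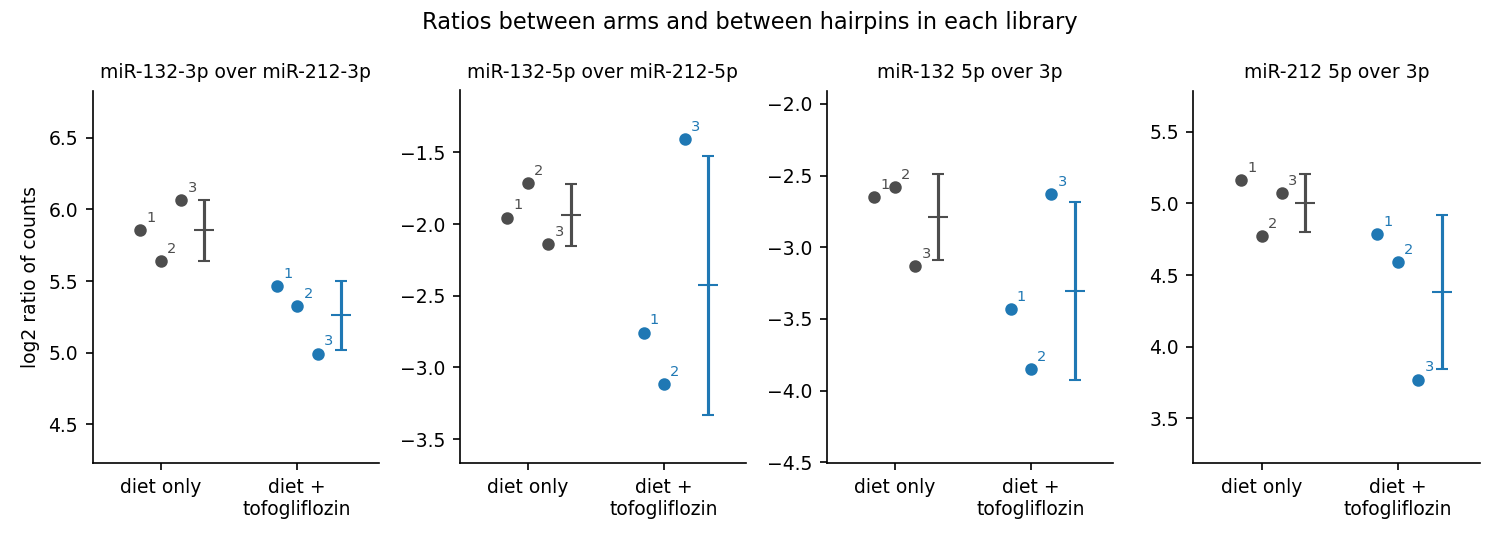
Log2 ratios of counts in each library, numbered by replicate, with the group mean and SD (n = 3) at the right of each group; each panel spans the same range of log2 units. For miR-132-3p over miR-212-3p the groups are apart (5.64 to 6.06 against 4.99 to 5.46), and tofogliflozin replicate 3 stands away from replicates 1 and 2 in the other 3 panels.

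Whether the arms vary together across mice was tested over the 6 libraries for all 6 pairs of members. The main arms of the hairpins, miR-132-3p and miR-212-5p, had the highest correlation of log2 CPM (Pearson r = 0.83, exact permutation p = 0.0417, adjusted p = 0.25; Spearman rho = 0.77, exact p = 0.103, adjusted p = 0.408). Leaving out diet-only replicate 1 and tofogliflozin replicate 2, the farthest from the median of miR-132-3p, r was 0.85 over 4 libraries. For the lesser arms, correlations with their partners were not detectable at n = 6, and the 8 to 19 counts of miR-212-3p leave wide counting error. For miR-132-3p and miR-132-5p r was -0.39 (exact p = 0.456, adjusted p = 0.547; rho = -0.26, exact p = 0.658, adjusted p = 0.658) and 0.01 without those libraries. For miR-212-5p and miR-212-3p r was 0.19 (exact p = 0.733, adjusted p = 0.733; rho = 0.37, exact p = 0.497, adjusted p = 0.658) and -0.67 without them. The other 3 pairs had r of 0.44 (miR-132-3p with miR-212-3p, rho = 0.43), -0.42 (miR-132-5p with miR-212-3p, rho = -0.31) and -0.56 (miR-132-5p with miR-212-5p, rho = -0.71), each with an adjusted exact permutation p of 0.547 for r, and each changed sign without the 2 libraries farthest from the median (-0.96, 0.39 and 0.33). The values of a library share its depth and scaling factor, and groups of 3 are too small for a correlation within a group.

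The miRNAs most like miR-132-3p over the 6 libraries, by Pearson r of log2 CPM and as a description, were miR-677-5p (0.97), miR-7091-3p (0.95), miR-210-3p (0.93), miR-190a-5p (0.91) and miR-224-5p (0.90). All 5 were highest in tofogliflozin replicate 2, as was miR-132-3p. Of these, miR-677-5p and miR-7091-3p averaged only 1.54 and 0.942 CPM. miR-210-3p, a miRNA induced by hypoxia, ran from 28.9 to 110 CPM. In the same order miR-212-5p was at place 28, miR-212-3p at 137 and miR-132-5p at 318. Most like miR-212-3p were miR-1191b-5p (0.99), miR-222-5p (0.96), miR-8112 (0.95), miR-484 (0.93) and miR-433-3p (0.90), again all highest in tofogliflozin replicate 2. Among them, miR-1191b-5p, miR-8112 and miR-433-3p averaged 0.718, 0.759 and 0.966 CPM, where counts are few. Both orders take the highest r of all tested miRNAs over 6 libraries, so high values arise from the selection itself.

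Other miRNAs tied to CREB were compared from a list of 10, described elsewhere as activated by CREB or as acting on it. Of the 8 that could be tested, 0 passed the threshold in either direction, 4 were above 0 and 4 below, and the median log2 fold change was 0.0079, beside -0.0052 over all tested miRNAs. miR-203-3p, an epithelial differentiation miRNA, was the most abundant and had the smallest p of the list. Diet-only mice had 533 ± 120 CPM and tofogliflozin mice 382 ± 63.0 CPM (SD, n = 3 per group). The groups overlap, and the log2 fold change was -0.53 ± 0.21 (SE; adjusted p = 0.854 by edgeR). miR-9-5p, a neural miRNA placed downstream of CREB, was at 0.11 ± 0.19, and miR-134-5p, which represses CREB in brain, at -0.09 ± 0.31. miR-433-3p, named above among the miRNAs most like miR-212-3p, is also on this list. Its log2 fold change was 0.58 ± 0.43 (SE; adjusted p = 0.859 by edgeR), at a mean of 0.966 CPM with overlapping groups.

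Since miR-132 and miR-212 are abundant in neurons, neural and endocrine miRNAs were read in the same libraries. Of 11 markers, 2 were at 0 in all libraries, the neuronal miR-124-3p and miR-137-3p. The list summed to 5131 to 5296 CPM in diet-only mice and 4380 to 6167 CPM in tofogliflozin mice, highest in replicate 2. Most of it was miR-128-3p, the most abundant at 2453 CPM, and miR-7a-5p at 2194 CPM. The member with the smallest p was miR-129-5p, at 70.0 ± 2.73 and 55.7 ± 9.50 CPM (SD, n = 3 each; log2 fold change -0.37 ± 0.16, adjusted p = 0.854 by edgeR). Summed endothelial markers overlapped between the groups (18085 to 22808 and 16353 to 22678 CPM), as did smooth muscle and pericyte markers (53469 to 57083 and 32349 to 61735 CPM). In tofogliflozin replicate 2, miR-132-3p, miR-212-5p and miR-212-3p (8 counts) were highest and miR-132-5p (24 counts) was lowest. The smooth muscle and endothelial lists were lowest in that library. The liver miRNA miR-122-5p was at 248 CPM there, against 39 to 78 CPM in the other libraries. The red blood cell list was also highest there, at 456 CPM against 90.7 to 330 CPM. It came mostly from miR-486-5p and miR-3107-5p, whose reads cannot be separated with certainty. Their means over the libraries were close, at 114 and 122 CPM, so the sum may count the same reads under both names. Of its 5 members 3 were tested, all 3 with a log2 fold change above 0 and 0 past the threshold. This pair was among the 3, so these are not 3 independent values. The part of these lists in the levels of the arms was not tested.

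The effect of leaving out each mouse and of other processing is shown for each arm. The direction held in each setting run for miR-132-5p and miR-212-3p, although neither passed the threshold in any of them. For miR-212-3p this is no independent support, since the low-count filter passed it through the tofogliflozin libraries and the settings reuse the same counts.

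**Figure D5:**
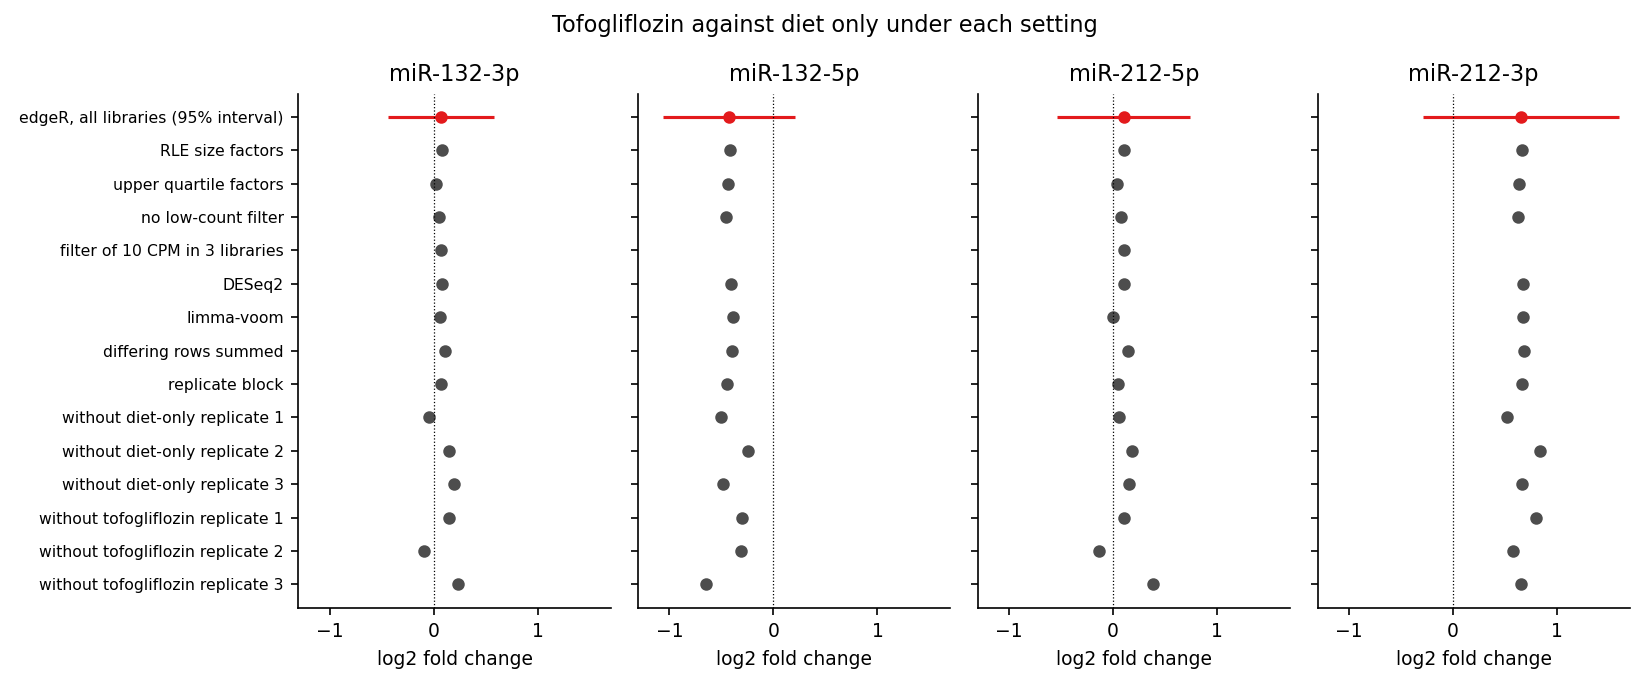
Log2 fold change (tofogliflozin minus diet only) of each arm under each setting, with the 95% interval of the edgeR fit to all libraries in red; the lesser arms have no point at a filter of 10 CPM, which removes them. miR-132-5p stays between -0.65 and -0.24 and miR-212-3p between 0.52 and 0.84, while miR-132-3p and miR-212-5p fall on both sides of 0.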

How the data were processed

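Small RNA from the renal cortex of 6 mice was sequenced, and the authors deposited 1 table of raw read counts per library, with no normalization. Per the submitters' processing notes, cutadapt 1.14 and build mm10 were used; which aligner, counting program or miRBase release served is not given in the sources used here. Per the labels' protocols, libraries came from a NEBNext small RNA kit. Each table had 2033 rows and 1900 mature names, 75 of them in more than 1 row; for these the largest count per library was taken. Each member had 1 row. Total counts were 8598518 to 29766679 over all rows. Columns of other samples numbered 0.

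Groups followed the labels. Per the series' design text, each group has n = 3 mice, and p-values measure the spread between these mice. CPM is the count scaled to the library's merged total. With differing rows summed instead, totals were 8574068 to 29649059 counts, so the members' CPM values would be lower on that scale. Differences (tofogliflozin minus diet only) were fitted in R 4.3.3 by the quasi-likelihood F-test of edgeR 4.0.16 (TMM, no covariates, filterByExpr at its default smallest count of 10, Benjamini-Hochberg adjustment over 460 miRNAs, threshold 0.05), with the SE as the absolute log2 fold change over the square root of F. Log2 CPM used a prior count of 2. Arm ratios were fitted with limma 3.58.1 where the lower arm averaged 50 counts or more. Single values had exact permutation tests. The fits were run on simulated data. For the arm ratios these data held counting error without a spread between mice, so they do not show how that fit performs on these libraries.

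The members, lists and tests were chosen with earlier results of these data known. Hairpin output, arm skew over 188 hairpins and the 96 neighbouring pairs were added after the values were seen. Named miRNAs are the members, their neighbours in abundance, the 5 most like each 3p arm, and the most abundant and smallest-p members of the CREB and neural lists. Other marker lists are given as sums. Chosen outside this rule, after their values were seen, were miR-9-5p, miR-134-5p, miR-7a-5p, miR-124-3p, miR-137-3p, miR-192-5p, miR-10a-5p, miR-204-5p, miR-346-5p, miR-146a-5p, miR-122-5p, miR-486-5p and miR-3107-5p. In the lists, miR-142a was matched to miR-142.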

Additional observations from a re-analysis of the deposited data

How the results depend on the processing

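The number of called miRNAs moved from 0 to 10 with no low-count filter and to 2 with DESeq2, which called miR-204-5p and miR-346-5p, and none of the calls was a member; the cause was not tested. Of 158 values under alternatives, 147 kept their direction and side of the threshold and 9 reversed. The log2 fold change of miR-212-5p was -0.00012 with limma-voom. With a library left out, log2 fold changes ran from -0.10 to 0.23 for miR-132-3p (its lowest without tofogliflozin replicate 2, -0.04 when the diet-only replicate 1 was left out), from -0.65 to -0.24 for miR-132-5p, from 0.52 to 0.84 for miR-212-3p and from -0.14 to 0.39 for miR-212-5p (-0.14 without tofogliflozin replicate 2). Differences of mean log2 CPM ran from -0.089 to 0.22 for miR-132-3p (its lowest without tofogliflozin replicate 2, -0.084 when the diet-only replicate 1 was left out) and from -0.19 to 0.36 for miR-212-5p (its lowest without tofogliflozin replicate 2, -0.04 without replicate 1 of that group and -0.03 without the diet-only replicate 1). Ratio differences stayed below 0, from -0.70 to -0.46 for miR-132-3p over miR-212-3p and from -1.0 to -0.15 for miR-132-5p over miR-212-5p. A filter of 10 CPM removes both lesser arms.

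The groups share replicate numbers, but the deviations of mice with the same number were not correlated over miRNAs as a pairing would ask (r = 0.0027, -0.14 and -0.17). A replicate block left the number of called miRNAs at 0, and its log2 fold changes were 0.07 for miR-132-3p, -0.44 for miR-132-5p, 0.67 for miR-212-3p and 0.05 for miR-212-5p. Depth limits miR-212-3p most, at 8 to 19 counts per library.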
